A study of Rattus norvegicus with 8 samples.

Results

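The L1 family, the contactins, NCAM and the CADM proteins are cell adhesion molecules of the immunoglobulin superfamily, and 10 of their genes were followed here through the 4 groups of a Pum2 knockdown study in rat sensory neurons. The genes were L1cam, Chl1, Nrcam and Nfasc of the L1 family, Ncam1, the contactins Cntn1 and Cntn2, and Cadm1, Cadm2 and Cadm3. They were listed by symbol, and the set was chosen by the axonal values of L1cam, which separated the hairpin groups, so axonal hairpin differences are given below as a description, and L1cam is described without a test wherever axonal libraries enter. Of the 10, 9 matched a RefSeq transcript of the libraries, out of 17379 genes in all, and Chl1 was not analysed here.

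Sensory neurons from dorsal root ganglia of rat embryos at day 15 were grown for 7 days in microfluidic chambers, whose grooves let axons grow into a compartment away from the cell bodies. All cultures received a lentivirus at plating, which expressed a control hairpin (shControl) or a hairpin that targets Pum2 mRNA (shPum2), and total RNA was sequenced from both compartments. The groups were soma shControl, soma shPum2, axon shControl and axon shPum2, each with 2 libraries. Somatic RNA came from cell bodies and axons together, per the labels, and its libraries were made with a standard kit, whereas axonal libraries used an ultra-low input kit, so the difference between compartments cannot be told apart from that between kits. The labels do not say whether same-group libraries came from separate cultures, and p-values measure the spread between these libraries, which may be technical.

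L1 family proteins span the membrane, bind each other and other adhesion molecules outside the cell, and attach to ankyrin and the spectrin skeleton inside. L1cam works in axon outgrowth and bundling, while Nrcam and Nfasc gather sodium channels at the axon initial segment and nodes of Ranvier. Contactins are held by a lipid anchor: Cntn1 pairs with Caspr at the paranodes, and Cntn2, also called TAG-1, is found on growing sensory axons and at juxtaparanodes. Ncam1 can carry polysialic acid, which loosens adhesion. The CADM proteins, also known as SynCAMs or nectin-like proteins, join axons to Schwann cells and span synapses. Pum2 is an RNA-binding protein of the Pumilio family that represses mRNAs.

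Somatic libraries held between 16725876 and 25821766 estimated counts and axonal libraries between 11641947 and 16131611. Pum2 had 164 and 160 CPM (each gene's share of its library's total counts) in soma shControl, against 38.2 and 36.5 CPM in soma shPum2. Its somatic log2 change of -2.13 was past the adjusted threshold of 0.05 in edgeR's quasi-likelihood test, though not in limma voom, in a fit of all 8 libraries or without either soma shControl library. In axons it had 3.25 and 0.443 CPM under shControl against 1.46 and 7.07 CPM under shPum2, so the knockdown was not detectable there. All 10 neuronal markers were found in every group. They summed to between 30053 and 35308 CPM in somatic and between 17651 and 33132 CPM in axonal libraries. Markers of glia, fibroblasts, macrophages and endothelium were also present: of the glial markers Cdh19 was at 0 in both axonal groups. The 7 macrophage and blood markers summed to 1115 and 547 CPM in axon shControl and 1443 and 49.8 CPM in axon shPum2. Somatic libraries had 42.0 to 176 CPM of them. The 9 glial markers summed to 70.2 to 193 CPM in axonal and 41.0 to 98.8 CPM in somatic libraries. Fibroblast sums were lower in axonal libraries (69.0 to 724 CPM), and endothelial sums overlapped. The part of these cells in the compartment differences was not tested. The library replicate 1 of soma shPum2 stood apart in its 8 fibroblast markers, at 8515 CPM against 1625 to 3270 CPM in the other somatic libraries. It also had the lowest neuronal sum of the somatic libraries, 30053 CPM against 34919 to 35308 CPM. Its macrophage (176 against 42.0 to 79.2 CPM), glial (98.8 against 41.0 to 63.9 CPM) and endothelial (16.0 against 10.1 to 11.1 CPM) sums were the highest.

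In somatic libraries the adhesion molecules were abundant, and per transcript length L1cam led them. Its level was 309 and 324 TPM (a share of the library scaled by transcript length) in soma shControl and 299 and 332 TPM in soma shPum2. L1cam was the first of the 9 in both somatic groups, above the next gene in every library. Cadm3 (283 and 282 TPM) and Cntn1 (291 and 269 TPM) followed in soma shControl and overlapped each other. Cadm1 averaged 205 TPM and Cntn2 203 TPM in soma shControl, and their libraries overlapped too. Ncam1, the neural cell adhesion molecule, was the sixth at 189 and 171 TPM. Cadm2 averaged 64.7 TPM and Nrcam 62.1 TPM, again with overlap, and Nfasc was last at 47.6 and 43.9 TPM. The order changed with shPum2 where neighbours had overlapped (Cntn1 beside Cadm3) and in the place of Cadm1, which came after Cntn2, outside its range, and overlapped Ncam1.

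Nfasc was the member with several transcripts in the files, 4 of them. In somatic libraries 92.4% of its counts went to the transcript NM_001160314 and 7.53% to NM_001160315. The transcript NM_001160313 took 0.0648% of the somatic counts. In axons it took 65.2% of the few Nfasc counts, with 2 and 12 in axon shControl and 45.9 and 0 in axon shPum2. The main somatic transcript NM_001160314 was listed at 0 in both axon shControl libraries and at 26.0 and 6.01 counts in axon shPum2. In 3 of the 4 axonal libraries most Nfasc counts thus went to another transcript than in somatic libraries, at a low axonal depth and without a test. kallisto divides reads that transcripts share, and the share of reads that tell these transcripts apart was not examined. L1cam was measured through NM_017345, 5093 bases long, and Cadm2 through NM_001047102, 1188 bases long. Forms of a gene without a transcript in these files were not analysed here.

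**Figure D1:**
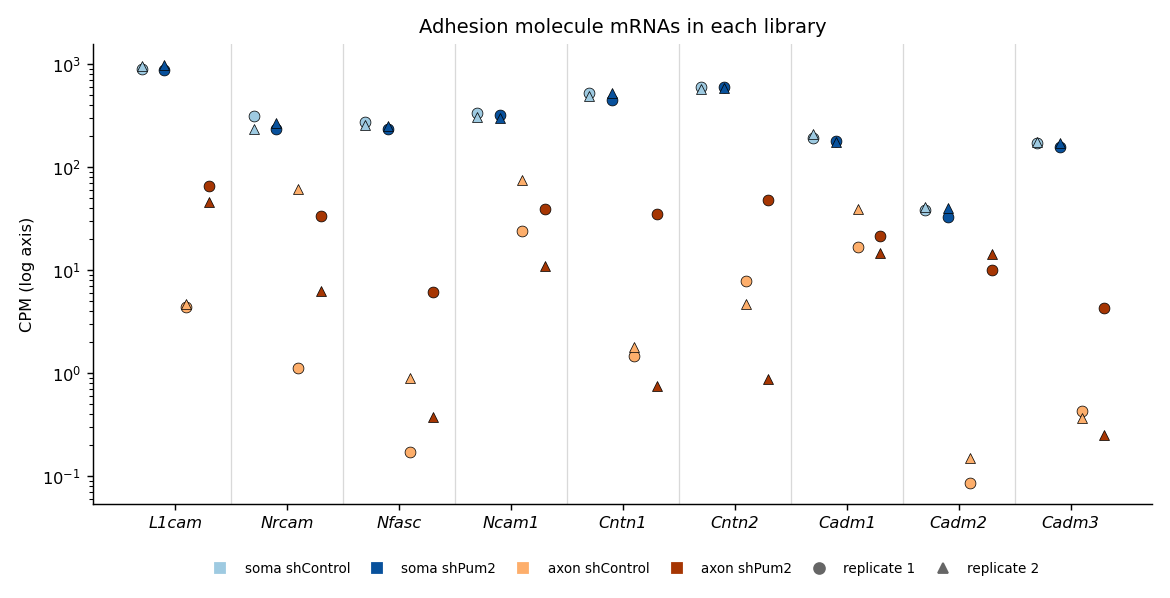
CPM of the 9 measured adhesion genes in each of the 8 libraries, on a log axis, with circles for replicate 1 and triangles for replicate 2. Somatic libraries sit close together, axonal libraries spread widely, and the axonal groups are apart for L1cam (4.36 and 4.73 against 65.5 and 45.7 CPM) and Cadm2 (0.0856 and 0.148 against 10.05 and 14.4 CPM).

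The somatic comparison asked whether a reduced Pum2 level was accompanied by other levels of these mRNAs in somatic RNA, and no member passed. L1cam had 906 and 965 CPM in soma shControl against 880 and 990 CPM in soma shPum2. The shPum2 libraries lay on either side of the shControl libraries. The log2 difference was -0.01 with an SE of 0.14. Cadm1, a SynCAM of synapses and axon-glia contacts, had 192 and 211 CPM in soma shControl against 178 and 176 CPM in soma shPum2. Both knockdown libraries were lower, with a log2 difference of -0.20 and an SE of 0.09. Nfasc had 273 and 256 CPM against 234 and 254 CPM (log2 difference -0.12, SE 0.10). Cadm3, the neuronal nectin-like protein, had 174 and 176 CPM against 158 and 172 CPM (log2 difference -0.09, SE 0.10). For these 3 genes the groups did not overlap, which was the case, in the lower direction, for 13% of the 12346 genes tested, and for 11.5% in the higher direction.

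The other members had overlapping somatic groups. Nrcam had 313 and 236 CPM in soma shControl against 238 and 267 CPM in soma shPum2. Ncam1 had 338 and 311 CPM against 324 and 302 CPM. The shPum2 libraries of Nrcam lay inside the range of the controls, and the values of Ncam1 interleaved between the hairpins. Cntn1 had 527 and 494 CPM against 448 and 528 CPM, with both shPum2 libraries outside the range of the controls, on opposite sides. Cntn2 had 609 and 579 CPM against 604 and 584 CPM, the closest pair of group means among the 9. Cadm2, which had the fewest somatic CPM of the 9, had 38.8 and 41.1 CPM against 32.8 and 40.3 CPM.

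All 9 log2 differences were negative, with a median of -0.09 and a range from -0.20 to -0.01, beside a median of 0.01 over all genes tested, of which 52.7% were positive. None of the 9 passed, and edgeR's quasi-likelihood test gave each a Benjamini-Hochberg adjusted p of 0.9997. That test called 0.0081% of genes (0% higher and 0.0081% lower), and 0 of the 9 members had an unadjusted p below 0.05, as against 74 of all genes. DESeq2 and limma voom also called 0 of the 9, and in the authors' deposited somatic table, where 0.0134% of genes are past 0.05, 0 of the 9 are. Replicate 1 of soma shPum2, the library with high fibroblast and low neuronal marker sums, had the lowest value of L1cam, Nfasc, Cntn1, Cadm2 and Cadm3. Without it the differences of L1cam (0.11), Cntn1 (0.08), Cadm2 (0.03), Cadm3 (0.0020) and Cntn2 (0.00086) were positive. The part of its neuronal, fibroblast and other marker sums in them was not tested. Fewer cells of a type and less RNA per cell cannot be told apart in these bulk libraries.

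**Figure D2:**
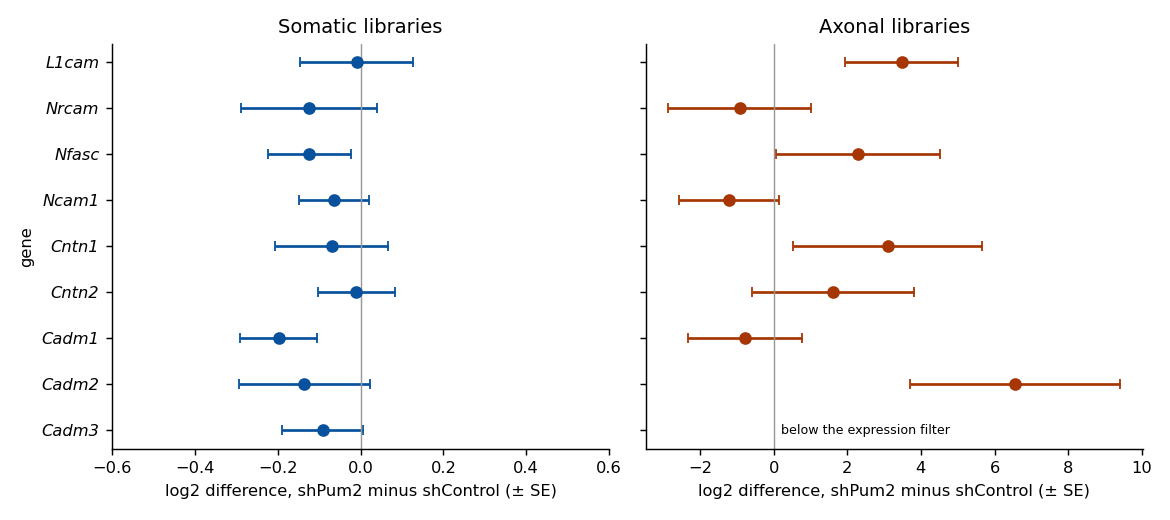
Log2 difference of shPum2 minus shControl with its SE for each member, in somatic libraries (left) and axonal libraries (right), from fits of 4 libraries each, with different scales on the horizontal axes. Somatic values lie between -0.20 and -0.01, whereas axonal values run from -1.21 for Ncam1 to 6.56 for Cadm2. Cadm3 was below the expression filter in axons.

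In axons the members behaved unlike each other, and 3 patterns were seen across the 4 libraries. L1cam and Cadm2 were higher in both shPum2 libraries than in either shControl library. Nfasc, Cntn1, Cntn2 and Cadm3 were high in replicate 1 of axon shPum2 alone. Nrcam, Ncam1 and Cadm1 were highest in replicate 2 of axon shControl. These patterns were drawn from the values and are a description. Of the 38 marker genes, 7 also had both axon shPum2 libraries above both controls and 2 had both below, beside 15.8% and 12% of all genes tested. The 7 were 4 of 10 neuronal, 2 of 9 glial and 1 of 8 fibroblast markers, among them, named after their values were seen, Prph, a neuronal intermediate filament (1045 and 1240 against 1822 and 1879 CPM), and Mbp, a myelin protein (3.17 and 6.58 against 31.0 and 19.2 CPM). Their part in the values of L1cam and Cadm2 was not tested.

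L1cam was at 4.36 and 4.73 CPM in axon shControl, from 51 and 64 counts, and at 65.5 and 45.7 CPM in axon shPum2, from 763 and 738 counts. The groups did not overlap and the libraries within each were close, a 1.08-fold and a 1.43-fold difference. The ratio of the group means was 12.2, and the fitted log2 difference was 3.47 with an SE of 1.53. Of the 8517 genes tested in axons, 5.01% had a difference at least as high. The difference was between 3.44 and 3.50 when any 1 of the 4 libraries was left out. L1cam was chosen by this separation, so neither its place among the genes nor this range is support.

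Cadm2 was nearly absent from axon shControl libraries, with 1 and 2 counts, or 0.0856 and 0.148 CPM. In axon shPum2 it had 117 and 233 counts, or 10.05 and 14.4 CPM. Both knockdown libraries were far above both control libraries. The ratio of shares was 106, with an exact 95% counting interval from 36.0 to 516, which does not cover the spread between libraries. The fitted log2 difference was 6.56 with an SE of 2.85, a value that depends on edgeR's prior count since the control counts were so few. Cadm2 passed the axonal expression filter through its shPum2 libraries alone, so a large difference was a condition of its being fitted. The difference ran from 5.92 to 7.00 with 1 library left out. Per length Cadm2 went from eighth of the 9 members in axon shControl (0.0589 and 0.110 TPM) to first in axon shPum2 (7.93 and 9.52 TPM), where it overlapped L1cam (10.6 and 6.29 TPM).

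Libraries that did not overlap were found, with shPum2 higher, for 15.8% of the genes tested in axons and for 2 of the 8 members that passed the expression filter. With shPum2 lower they were found for 12% of the genes and 0 of the 8. Over all genes edgeR called 0%, with 257 genes at an unadjusted p below 0.05, and DESeq2 called 157 genes. Of the genes with an adjusted p in the authors' deposited axonal table, 4.03% are past 0.05 and 1.93% are past it as higher. The authors' deposited table lists a log2 fold change of 5.70 with an SE of 1.63 for Cadm2 and of 3.18 with an SE of 1.28 for L1cam. Since L1cam chose this set in this comparison, nothing is read from these counts.

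The contactins followed a single library. Cntn1, the Caspr partner, had 1.45 and 1.77 CPM in axon shControl against 34.9 and 0.744 CPM in axon shPum2. The shPum2 libraries lay above and below both controls, 46.9-fold apart. Cntn2 had 7.87 and 4.66 CPM against 48.6 and 0.868 CPM, with the same arrangement and 56.0-fold between the shPum2 libraries. The fitted log2 differences of 3.10 (SE 2.57) and 1.61 (SE 2.21) became -0.94 and -2.68 without replicate 1 of axon shPum2.

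Nfasc and Cadm3 had few axonal counts outside that library. Nfasc had 0.171 and 0.887 CPM in axon shControl, from 2 and 12 counts, against 6.18 and 0.372 CPM in axon shPum2. Cadm3 had 0.428 and 0.369 CPM, from 5 counts in each library, against 4.29 and 0.248 CPM. Again replicate 1 of axon shPum2 was the high one, and the other shPum2 library overlapped or lay under the controls. The log2 difference of Nfasc, 2.29 with an SE of 2.22, was -0.33 without that library. Map2, a microtubule-associated protein whose mRNA is known from cell bodies and dendrites, had 34.9 CPM in the same library and 0.310 to 1.33 CPM in the other 3 axonal libraries. Of the axonal libraries it also had the highest sums of the 10 neuronal markers (33132 CPM), the 8 fibroblast markers (724 CPM against 69.0 to 361 CPM), the 7 macrophage and blood markers (1443 CPM against 49.8 to 1115 CPM) and the 4 endothelial markers (14.4 CPM against 0.257 to 2.73 CPM). Its sum of the 9 glial markers, 148 CPM, lay under the 193 CPM of replicate 1 of axon shControl and above the others. The endothelial markers Cdh5 and Kdr were at 0 in all axonal libraries, and so was Cd74 of the macrophage list. The part of these in the 4 genes was not tested. In replicate 2 of axon shPum2 Map2 had 0.310 CPM and the fibroblast and macrophage sums were the lowest of the axonal libraries. The glial marker Mbp had 19.2 CPM there, against 3.17 and 6.58 CPM in axon shControl. L1cam had 45.7 and Cadm2 14.4 CPM in that library, and the part of other cells in them was not tested.

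Nrcam, Ncam1 and Cadm1 had the highest mean CPM of the members in axon shControl. Ncam1 had 24.0 and 75.5 CPM in axon shControl against 39.7 and 10.9 CPM in axon shPum2. Cadm1 had 16.9 and 39.5 CPM against 21.5 and 14.6 CPM, the smallest spread over the 4 axonal libraries of the 9 members, 2.70-fold from highest to lowest. Nrcam had 1.11 and 61.8 CPM against 33.4 and 6.32 CPM. Its 2 control libraries were 55.6-fold apart and enclosed both shPum2 values. The log2 differences of Ncam1 (-1.21, SE 1.35), Cadm1 (-0.78, SE 1.56) and Nrcam (-0.92, SE 1.94) were smaller than their SE, and Nrcam stood at 3.82 without replicate 2 of axon shControl. Per length Cadm1 and Ncam1 were first in axon shControl, averaging 12.9 and 12.5 TPM, and their libraries overlapped. Isl1, a transcription factor of sensory neurons, had 0.342 and 26.6 CPM in axon shControl and 15.9 and 0.0620 CPM in axon shPum2, high in the same 2 libraries as Nrcam, and its part in these values was not tested.

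The interaction, which asked whether the hairpin difference was larger in axonal than in somatic RNA, gave log2 values of 6.83 for Cadm2 (SE 1.38) and 3.53 for L1cam (SE 0.46). It rests on the axonal difference that chose the set and is a description. Somatic libraries, which varied less, entered the spread behind its SE. edgeR called 0% of 12337 genes, with 964 at an unadjusted p below 0.05, and DESeq2 called 606. Without replicate 1 of axon shControl edgeR called 713.

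The comparison of compartments asked how much of each mRNA the axonal libraries held relative to the somatic ones. Its fit held all 8 libraries, so somatic ones, which varied less, entered the spread behind its SE and adjusted p here too. As a percent of the somatic mean of the same hairpin, L1cam was at 0.467% and 0.506% in axon shControl and at 7.01% and 4.89% in axon shPum2. Cadm2 went from 0.214% and 0.370% to 27.5% and 39.5%. Cntn1 (0.285% and 0.347%), Cadm3 (0.245% and 0.211%) and Nfasc (0.0648% and 0.335%) were lower than L1cam in axon shControl. Ncam1 was at 7.41% and 23.3% and Cadm1 at 8.41% and 19.6% in axon shControl, far above the other members of the same libraries apart from Nrcam in replicate 2 (22.5%). The median gene stood at 14.5% and 5.31% in axon shControl and at 29.4% and 3.74% in axon shPum2. The median of the 9 members was lower in each of these libraries, at 0.406%, 0.506%, 8.19% and 2.50%.

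**Figure D3:**
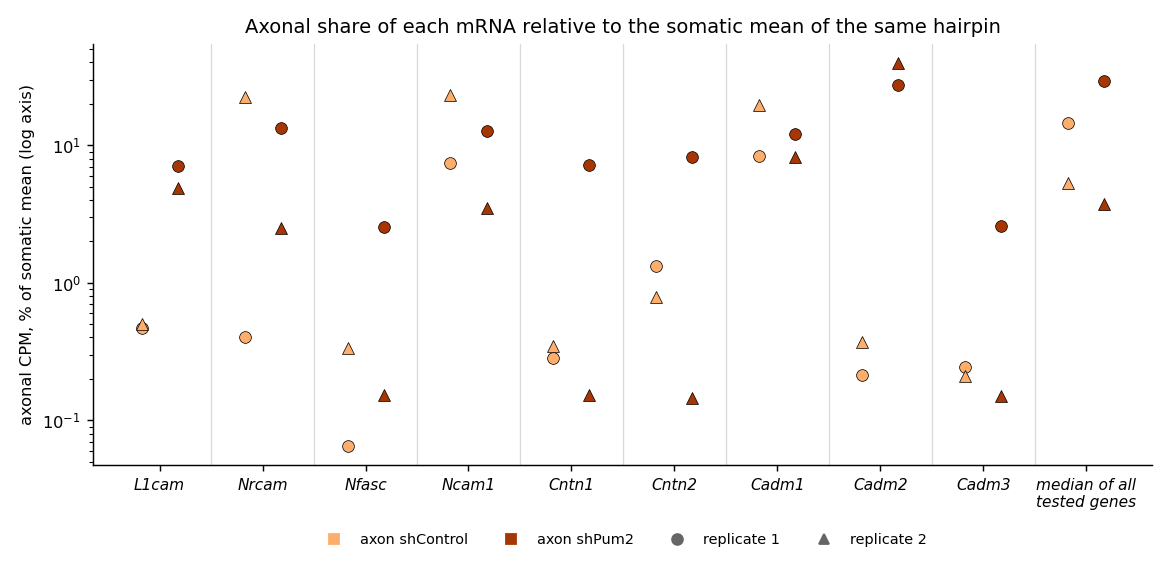
Axonal CPM of each member as a percent of its somatic mean with the same hairpin, on a log axis, with the median of all tested genes at the right. Cadm2 is at 27.5% and 39.5% in the axon shPum2 libraries, L1cam reaches 7.01% and 4.89%, and Nfasc, Cntn1, Cntn2 and Cadm3 are above both their control values in replicate 1 alone.

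In shControl cultures 5 of the 8 members other than L1cam were lower in axonal than in somatic libraries, where 27.9% of the 12337 genes tested were called, 18.5% as lower and 9.41% as higher. L1cam, whose axonal values entered the choice of the set, is given without a test, and its log2 change was -6.10, SE 0.39. Nfasc was at -7.38, Cadm3 at -7.18, Cadm2 at -6.80 and Cntn1 at -6.72, with Benjamini-Hochberg adjusted p from 0.0138 to 0.0230 in edgeR's quasi-likelihood test. The Cadm2 value rests on 3 axonal counts, and its ratio of shares, somatic over axonal, was 338 with a counting interval from 115 to 1638. Cadm3 had 5 counts in each axon shControl library and entered the fit of all libraries through its somatic ones. A call of Cadm3 as lower was thus nearly a condition of its being tested. Nfasc, with 2 and 12 counts there, and Cadm2 did not need their axon shControl libraries to pass the filter. Little room was left for another outcome, and the calls of Nfasc, Cadm2 and Cadm3 are given as a description. Cntn2 passed at -4.98, SE 1.46 (Benjamini-Hochberg adjusted p = 0.0465, edgeR), and did not pass without the expression filter (0.0547). Nrcam (-1.57, SE 1.45), Cadm1 (-1.27, SE 0.56) and Ncam1 (-1.14, SE 0.66) did not pass, but with libraries scaled by their totals Cadm1 and Ncam1 did. The median of the 8 members other than L1cam was -5.85, beside -0.75 over all genes. All 9 had axonal libraries below both somatic libraries, as did 68.7% of all genes, beside 11.5% with both above.

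These calls depended on single somatic libraries. Without replicate 1 or without replicate 2 of soma shControl edgeR called 0 genes, although the fitted changes moved little, L1cam staying between -6.20 and -6.01 over all 8 libraries left out in turn. Without either soma shPum2 library 0 of the other 8 passed. Without replicate 2 of axon shControl Nrcam, at -6.34, passed with Nfasc, Cadm1 and Cadm2, and Cntn1, Cntn2 and Cadm3 did not. Without replicate 1 of axon shControl Nfasc, Cadm2 and Cadm3 passed.

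In shPum2 cultures 2 of the 8 members other than L1cam were lower in axons, beside 24.7% of all genes called, 16.2% as lower and 8.45% as higher. They were Nfasc at -4.97 (SE 1.27, adjusted p = 0.0322) and Cadm3 at -4.94 (SE 1.16, adjusted p = 0.0261), both by edgeR quasi-likelihood with Benjamini-Hochberg adjustment. Here too Cadm3 entered the fit through its somatic libraries, which left little room for another outcome. Nfasc, with 72 and 6 counts in axon shPum2, did not need both of those libraries to pass the filter. L1cam, again without a test, was at -2.57 on the log2 scale (SE 0.33). Cntn1 (-3.57), Cntn2 (-3.37), Nrcam (-2.35), Ncam1 (-2.26) and Cadm1 (-1.79) missed the threshold. Cadm2 was at 0.04 with an SE of 0.86, and at -1.58 when libraries were scaled by their totals. The median of the 8 members other than L1cam was -2.86, beside -0.64 over all genes. L1cam had the smallest SE of the 9. In CPM both axonal libraries of each of the 9 lay below both somatic libraries, as they did for 69.3% of all genes, with both above for 11%.

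These calls too moved with single libraries. Without replicate 1 of axon shPum2 Cntn1 (-7.32) and Cntn2 (-7.38) passed as well, making 4 of the 8, and the same 4 passed without replicate 2. Without replicate 1 or 2 of axon shControl 5 passed, with Nrcam, Ncam1 and Cadm1 added. Without any 1 of the 4 somatic libraries edgeR called 0 of the 8. DESeq2 called 5 of the 8, limma voom 4, and an edgeR fit of the 4 shPum2 libraries alone 0.

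Transcript length moved with the compartment difference over all genes. In shControl the log2 change had a Spearman rho of -0.32 with length across 12337 genes, which are not independent, and in shPum2 of -0.35. The median change was 0.14 for genes of 1000 to 2000 bases, -1.34 for 2000 to 4000, -2.44 for 4000 to 6000 and -2.55 for 6000 to 10000 bases in shControl. Cadm2 and Cadm3, with records of 1188 and 1191 bases among the shortest members, lay far under the median of that length range in shControl, at -6.80 and -7.18. Lengths are those of the transcript records used, and whether these records hold the whole mRNAs was not examined. Cadm1, L1cam, Cntn1, Cntn2 and Nfasc lay under the medians of their lengths as well. Nrcam, with 7556 bases, and Ncam1, with 3170, lay above theirs. The part of length and library kit in these values was not tested.

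**Figure D4:**
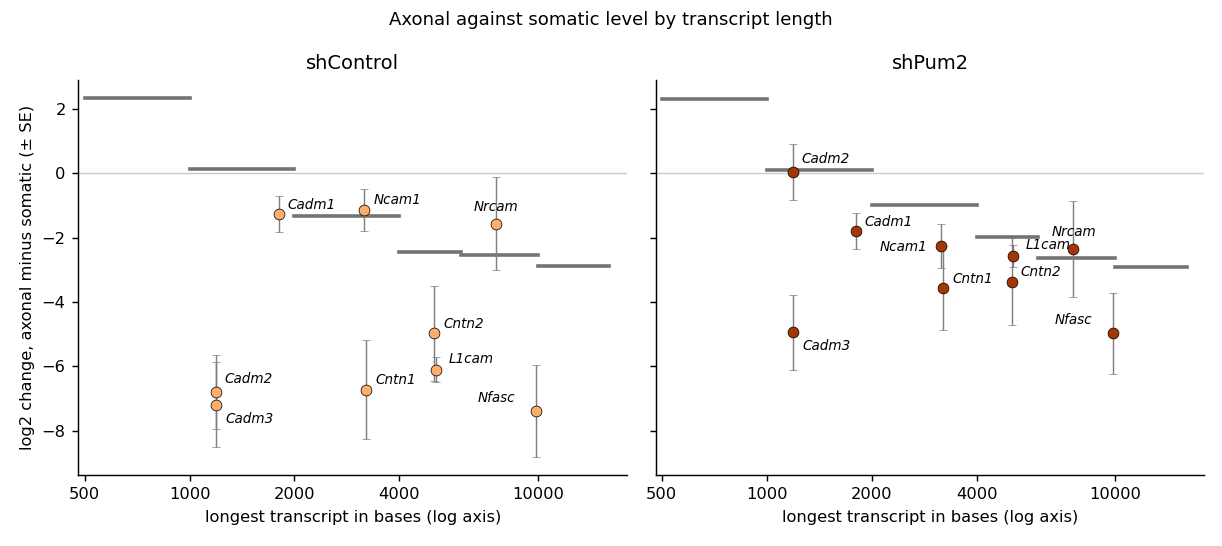
Log2 change of axonal minus somatic libraries with its SE against the length of the longest transcript record of each member, for shControl (left) and shPum2 (right). Grey lines are medians of all tested genes in bins of length, with the outer bins ending at the edges of the plot. In shControl Cadm2, Cadm3, Cntn1, Cntn2, L1cam and Nfasc lie far below the lines, and in shPum2 Cadm2 lies on its line.

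The genes most like L1cam over the 8 libraries were Ttl, Chmp7, Brinp1, Sort1 and Spock2, among 8991 genes. Likeness was the root mean square difference of log2(CPM + 0.5) after centring each gene, which was 0.10 for Ttl and 0.36 for Spock2. In axon shControl the 5 genes had 0.0856 to 1.33 CPM, about the size of the added 0.5. Their likeness to L1cam thus depends on that setting. Ttl, the tubulin tyrosine ligase, was at 0.513 and 0.665 CPM in axon shControl, 13.8 and 9.48 CPM in axon shPum2 and 168 to 190 CPM in somatic libraries. Sort1, the sorting receptor sortilin, had 0.513 and 0.222 CPM against 14.6 and 4.15 CPM in axons. Among the members Cadm2 was nearest, at 1.09 and place 278, and Ncam1 farthest, at 2.05. The points share library, depth and kit.

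Partners of these adhesion molecules were followed as a list of 49 genes, of which 45 matched a transcript. It held other contactins and CADM and NCAM genes, cytoskeletal adaptors, axon-glia partners, co-receptors, ligands, polysialyltransferases, proteases and endocytic adaptors. By edgeR 0 of the 45 passed in the somatic comparison and 0 had an unadjusted p below 0.05, and the median was 0.05, beside 0.01 over all genes. Of the 26 that passed the axonal filter, 16 had a positive hairpin difference, beside 48.3% of all genes. Their median was 0.24, beside -0.05 over all genes. Both shPum2 libraries were above both controls for 1 of the 26 and below for 2, beside 15.8% and 12% of all genes. In the compartment comparison 18 of 45 were lower in shControl, beside 18.5% of all genes, and in shPum2 19 were lower and 1 higher, beside 16.2% and 8.45% of all genes. Partners with few axonal counts entered these fits through their somatic libraries, which left little room for a call as higher. The partners' medians were -2.73 and -3.89, beside -0.75 and -0.64 over all genes.

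Among the adaptors, the spectrin Sptan1 had 2602 and 2465 CPM in soma shControl against 55.1 and 16.3 CPM in axon shControl. It was lower in axons with either hairpin, at log2 changes of -4.55 and -3.89. Dcx, doublecortin, which binds microtubules, had 7.19 and 21.6 CPM in axon shControl against 21.8 and 4.96 CPM in axon shPum2. It too was lower in axons with either hairpin, at -3.71 and -4.00. Cntnap1, which encodes the contactin partner Caspr, had 348 and 317 CPM in soma shControl against 0.257 and 1.55 CPM in axon shControl. Its axon shPum2 libraries held 8.59 and 0.806 CPM, high in replicate 1 as for Cntn1 and Cntn2, and the gene was lower in axons at -6.95 and -4.73. Moesin (Msn), which links membrane proteins to actin, was lower in shControl axons (-1.96) and did not pass in shPum2 (-0.97).

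The 4 partners with the highest mean CPM over the axonal libraries were Ap2m1, Itgb1, Epb41l3 and Ptn. The clathrin adaptor subunit Ap2m1, part of the complex that takes up L1cam, had 601 and 612 CPM in axon shControl against 832 and 565 CPM in axon shPum2. It was the 1 partner called higher in axons of shPum2 cultures after TMM scaling (log2 change 0.97), and it did not pass in shControl (0.76). By library totals the direction was the opposite, as its somatic libraries held 962 and 1052 CPM with shPum2. Integrin Itgb1, a receptor for matrix and L1cam, had 123 and 66.4 CPM against 308 and 112 CPM in axons. Epb41l3, a band 4.1 protein that binds CADM proteins, had 20.1 and 214 CPM against 240 and 34.0 CPM. The growth factor Ptn had 24.2 and 113 CPM against 110 and 30.6 CPM. Epb41l3 and Ptn shared with Nrcam the low values in replicate 1 of axon shControl and replicate 2 of axon shPum2.

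Of the 6 other family members, 5 were lower in axons with either hairpin, beside 18.5% and 16.2% of all genes. These 5 had between 0 and 10 counts in each axonal library and passed the expression filter through their somatic libraries. A call as lower was thus nearly a condition of their being tested, and nothing is read from it. Cntn4, the remaining one of the 6, is named after its values were seen. It had 1.80 and 0.222 CPM in axon shControl against 24.7 and 0.0620 CPM in axon shPum2, high in the same library as Cntn1 and Cntn2. In somatic libraries it had 61.3 and 49.4 CPM under shControl against 58.3 and 57.5 CPM under shPum2.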

How the data were processed

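The authors' deposited library files hold estimated counts and TPM per RefSeq transcript with transcript lengths, per the file headers. The submitters' processing notes name kallisto, DESeq2 and the build Rnor_6.0 without versions. The authors' 2 deposited comparison tables hold a mean normalised signal, log2 fold changes, a test statistic (score) and p-values, per the file headers. Of 18321 transcripts 17367 were named through a RefSeq table of assembly GRCr8 and the others kept their own ID, transcripts of 1 gene were added up (17379 genes, rounded to whole counts), and reads shared between similar genes were divided by kallisto.

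edgeR 4.0.16 in R 4.3.3 (quasi-likelihood test, TMM, its expression filter, Benjamini-Hochberg over all genes tested, threshold 0.05) was fitted to 4 libraries per hairpin comparison and to all 8 for the compartment comparisons and the interaction. CPM was taken over library totals. TMM scaling puts the median gene at -0.75 (shControl) and -0.64 (shPum2) in the compartment comparisons, and library totals put it at -2.34 and -2.03. The fits were tested on simulated data. Counting intervals cover counting error alone, and reads are not known to be independent molecules. Alternatives were DESeq2 1.42.0, limma voom 3.58.1, other size factors, no filter, a replicate term and each library left out. Named genes were the 9 members, Pum2, the partners with the highest mean CPM (8 over all and 4 over axonal libraries) and the 5 genes most like L1cam with a mean CPM of at least 5. Members and lists were chosen with earlier results of these data known.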

Additional observations from a re-analysis of the deposited data

How the results depend on the processing

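The hairpin differences of L1cam and Cadm2 in axons kept their sign in all alternatives. Their hairpin groups do not overlap in CPM, so leaving out 1 library could not turn the sign, and this is no support. The axonal differences of Nrcam, Nfasc, Cntn1 and Cntn2 turned with 1 library (Nrcam also with limma voom, 0.49, and the replicate block, 0.66). Depth limits Cadm2, Cadm3 and Nfasc in axon shControl to 3, 10 and 14 counts. The somatic comparison called 2 genes with DESeq2, 0 with limma voom, 0 with all 8 libraries in a single fit and 0 to 1 with a library left out. Somatic differences that turned positive with 1 library left out were those of L1cam (up to 0.11), Nrcam (0.0789), Cntn1 (0.0750), Cntn2 (0.0164), Cadm2 (0.0345) and Cadm3 (0.0020). Lowest values were -0.14, -0.30, -0.24, -0.0301, -0.34 and -0.20. The axonal comparison called 157 genes with DESeq2, 6 without the filter and 0 to 31 with a library left out. In the interaction DESeq2 called 606 genes and 2 members, and leaving out a library gave 0 to 713 genes and 0 to 1 member, from which nothing is read since the set was chosen on the axonal difference. The counts of members below include L1cam. In shControl the compartment comparison called 0 to 5539 genes and 0 to 6 members as lower with a library left out. In shPum2 it called 0 to 4862 genes and 0 to 6 members, and the members numbered 5 with total counts as size factors, 6 with DESeq2, 5 with limma voom and 1 with the 4 shPum2 libraries alone. Cadm2 in that comparison was -1.58 with total counts, -0.0925 with limma voom, -0.0408 with the replicate block and between -0.72 and 0.69 with a library left out. The cause of these shifts was not tested. Same-numbered libraries deviated together across genes in somatic (r = 0.74) and hardly in axonal RNA (r = 0.08), and with 2 numbers this is not taken as pairing. The replicate block called 1 gene in the somatic comparison, 0 in the axonal comparison and the interaction, and 2370 and 2199 in the compartment comparisons. There 4 and 1 members were lower in place of 5 and 2, Cntn2 and Nfasc being the ones lost. In shControl 7 members were lower with total counts as size factors and 4 without the filter.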
